A study of Mus musculus with 3 samples.

Results

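The genes described here encode matricellular and adhesive glycoproteins of the extracellular matrix: Fn1, Tgfbi, Thbs1, Thbs2, Tnc, Sparc, Postn, Fbn1, Fbln2 and Vcan. They are 10 of the 10008 genes that could be named on a 2-colour Agilent mouse oligonucleotide array, and they were taken by name with every probe that carries them. The array files hold 17 such probes among 20371. For 16 of them the name in the files is the current or older symbol, Vcan being listed as Cspg2, and the Postn probe is listed as Osf2-pending and was found through its gene ID. The probes carry the clone or accession names used below, and which exon a probe lies in was not used here. The rule that chose the genes did not use their measured values, although results of these data were known when they were chosen.

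RNA came from mesenchymal and epithelial cells of 3 separate mouse ovarian surface epithelium (OSE) cultures. The mesenchymal cells had spent 1 week in 15% fetal bovine serum, and the epithelial cells were the part of the same culture kept in 2.5% serum. All cells were from C57/Bl6 females that had been superovulated with gonadotropins and mated, were grown in the same antibiotic-free mixture of media, and were collected at 80% confluence; the age and the number of mice behind a culture were not given in the sources used here. The phenotype was brought about by serum, so serum concentration and phenotype cannot be told apart. For each culture, mesenchymal and epithelial RNA shared 2 arrays that differed in which RNA carried Cy5 and which Cy3, so there were 6 arrays and n = 3 cultures. The values below are log2 ratios of mesenchymal RNA to epithelial RNA, averaged over the 2 arrays of a culture, and a probe was called when its Benjamini-Hochberg adjusted p in limma was under 0.05 over all 20185 probes tested.

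Matricellular proteins are secreted into the matrix and act on cells through integrins and other receptors more than they bear load. Fibronectin, the product of Fn1, is the main adhesive glycoprotein of culture matrix and is a widely used marker of epithelial-to-mesenchymal transition. Several of these genes, among them Tgfbi, Postn and Tnc, are known to respond to TGF-beta. In the ovary, the surface epithelium rests on a basement membrane over a collagen-rich layer, and it is ruptured and repaired at ovulation.

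Saturation touched 223 to 578 probes per array in mesenchymal RNA and 239 to 433 in epithelial RNA, and the array of culture 3 with mesenchymal RNA in Cy3 had 1639 outlier-flagged probes against 61 to 467 on the others. Once all ratios pointed the same way, pairs of arrays labelled alike had correlations of 0.81 to 0.93 over probes, and pairs labelled oppositely had correlations of -0.53 to -0.14. The direction of every ratio rests on the dye orientation in the names of the deposited arrays.

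The 10 genes did not move together. Tgfbi was 3.23-fold higher in mesenchymal than in epithelial RNA (log2 ratio 1.69 ± 0.47, SD, n = 3), and Vcan was 2.34-fold higher by its brighter probe (1.23 ± 0.20) and 1.44-fold higher by its dimmer one (0.53 ± 0.10). Postn fell by 0.70 ± 0.31 on the log2 scale and Fbn1 fell by 0.42 ± 0.18. The other 6 genes had no called probe. In all, 5 of 17 probes (29.4%) were called, 3 higher and 2 lower, against 11.3% of all tested probes, of which 5.6% were called higher and 5.66% lower. In bulk RNA, fewer cells of a type and less RNA per cell cannot be told apart. The median log2 ratio of the 17 probes was -0.04, against -0.0032 over all tested probes. Without culture 3, which holds the array with the many outlier flags, Tgfbi was at 1.83 (adjusted p = 0.0132), the brighter Vcan probe at 1.26 (adjusted p = 0.0123) and Postn at -0.84 (adjusted p = 0.0361), each still called, whereas Fbn1 (-0.41, adjusted p = 0.213) and the dimmer Vcan probe (0.48, adjusted p = 0.101) were not. The genes of fibronectin, SPARC, fibulin-2 and thrombospondin-2 each had a probe at or near the scanner's upper limit, where a change can be hidden in part or in full.

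**Figure D1:**
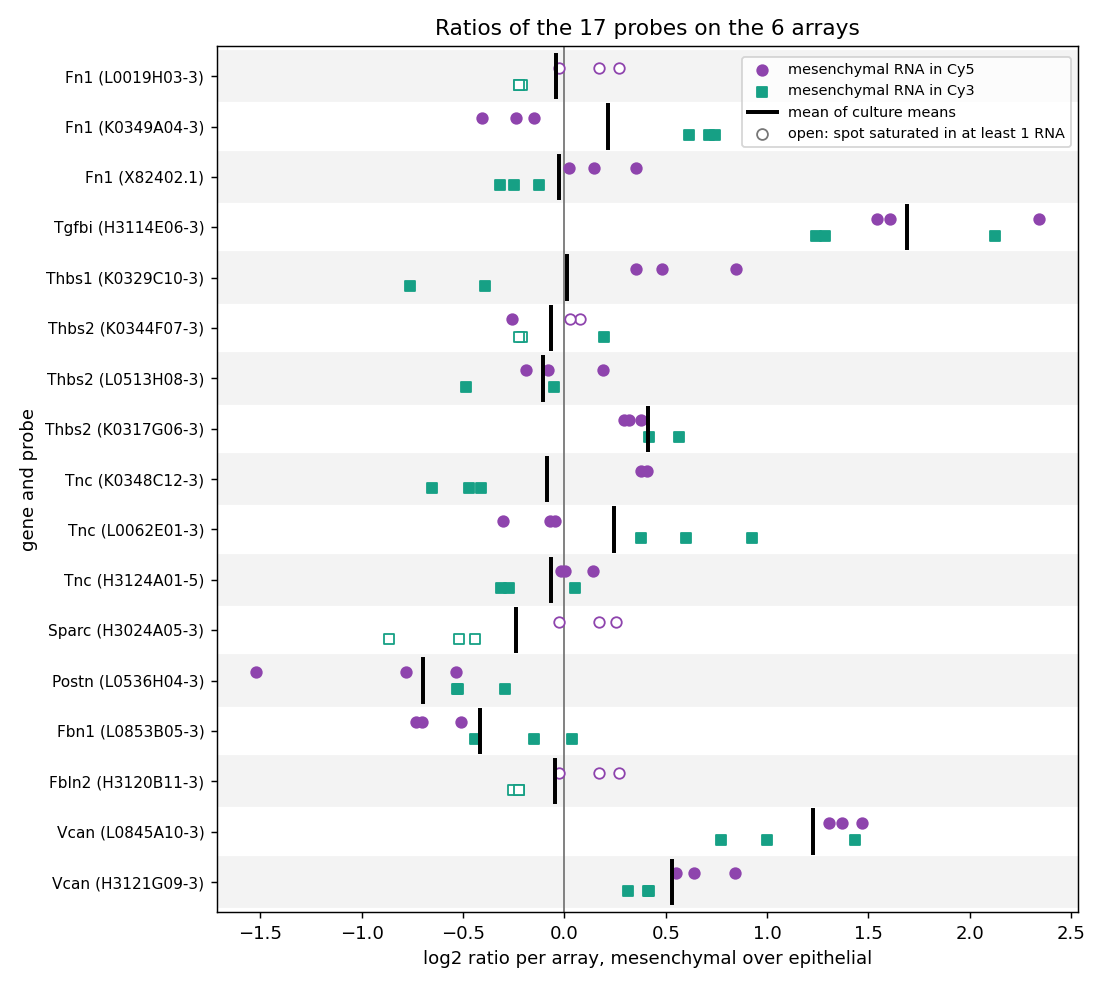
Log2 ratio of mesenchymal over epithelial RNA (x axis) for each of the 17 probes (y axis) on each array. Circles are arrays with mesenchymal RNA in Cy5, squares arrays with it in Cy3, open symbols spots saturated in at least 1 RNA, and black bars the mean of the culture means. Tgfbi and both Vcan probes lie right of 0 on every array and Postn left of 0 on every array, whereas several probes change side with the dye.

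Each dye orientation is a second reading of the same RNAs, so a change in the RNA that exceeds the dye effect keeps its sign when the dyes are exchanged. Of the 13 member probes measured on all 6 arrays, 4 had the same sign on every one: Tgfbi, both Vcan probes and Postn. Over all probes measured on 6 arrays that share was 11.8%. The dye effect of a probe, computed from the same ratios before they were turned, was larger than its change in 10 of the 17 probes, and it was called in 10 of 17, against 57.7% of all tested probes. The average of both orientations cancels such an effect.

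For the 4 genes with a called change, the 250 bases before each annotated transcription start are shown, as RefSeq gives them on assembly GRCm38.p6, because the same windows were searched for 4 motifs on both strands. The motifs were the TATA box (TATAAA), the GC box bound by Sp1 family factors (GGGCGG), the AP-1 site (TGANTCA) and the TEAD site (GGAATG), and capitals mark the matches (CCGCCC is the GC box on the other strand). Postn has 2 annotated starts, and both are given. Each sequence runs 5′ to 3′ on the gene's strand and stops before the first base transcribed from that annotated start. The Tgfbi start and the first Postn start are the outer ends of their annotated genes. The starts used for Vcan and Fbn1 and the second Postn start lie inside the annotated gene.
Tgfbi (chr13:56609336-56609585, plus strand): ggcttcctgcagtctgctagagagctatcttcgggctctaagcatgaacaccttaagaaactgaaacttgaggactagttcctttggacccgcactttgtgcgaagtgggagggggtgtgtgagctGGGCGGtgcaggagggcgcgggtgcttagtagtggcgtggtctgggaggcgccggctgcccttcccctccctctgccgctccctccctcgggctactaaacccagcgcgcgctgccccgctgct
Vcan (chr13:89742513-89742762, minus strand): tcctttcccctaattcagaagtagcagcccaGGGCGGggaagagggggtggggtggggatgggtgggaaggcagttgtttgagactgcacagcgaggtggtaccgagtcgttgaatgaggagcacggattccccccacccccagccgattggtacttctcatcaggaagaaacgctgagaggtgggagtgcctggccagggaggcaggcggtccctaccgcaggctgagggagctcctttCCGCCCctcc
Postn, first start (chr3:54359017-54359266, plus strand): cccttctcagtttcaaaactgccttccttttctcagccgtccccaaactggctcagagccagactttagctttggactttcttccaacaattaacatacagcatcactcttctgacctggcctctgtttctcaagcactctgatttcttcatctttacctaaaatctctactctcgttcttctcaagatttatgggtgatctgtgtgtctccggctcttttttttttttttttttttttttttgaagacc
Postn, second start (chr3:54360857-54361106, plus strand): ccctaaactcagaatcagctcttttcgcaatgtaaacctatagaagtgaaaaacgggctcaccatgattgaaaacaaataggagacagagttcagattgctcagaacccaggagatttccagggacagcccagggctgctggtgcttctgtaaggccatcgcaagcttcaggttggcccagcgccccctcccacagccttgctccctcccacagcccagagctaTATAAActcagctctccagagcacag
Fbn1 (chr2:125506439-125506688, minus strand): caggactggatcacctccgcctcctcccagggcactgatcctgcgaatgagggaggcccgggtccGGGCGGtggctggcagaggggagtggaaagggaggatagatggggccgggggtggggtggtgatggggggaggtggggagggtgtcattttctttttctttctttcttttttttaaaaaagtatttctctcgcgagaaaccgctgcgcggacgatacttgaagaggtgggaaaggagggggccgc

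In these windows, Tgfbi, Vcan and Fbn1, of which Fbn1 was lower and the other two were higher, each held a GC box, which 32.7% of all 32841 promoter windows of this length hold. The second Postn start had a TATA box beginning 26 bases before it, a motif found in 12.4% of all windows, and the first had none of the 4 motifs. AP-1 and TEAD letters were in 0 of the 10 windows of the 8 member genes that the table holds, against 6.75% and 12.6% of all windows. No 2 matches overlapped in the windows shown. A match is a description of the letters, and the absence of one says nothing about the factor. The windows of Tgfbi and Vcan were both 62.4% G and C and that of Fbn1 59.2%, while those of Postn were 40.4% and 52.0%, against a median of 52.4% over all windows.

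Tgfbi encodes an RGD-containing adhesion protein that binds collagen and integrins, and it is named for its induction by TGF-beta. Its probe (H3114E06-3) had a spot signal of 1764 to 4219 scanner units in mesenchymal RNA, with a median of 2510, against 424 to 1805 in epithelial RNA, with a median of 756. These signals are as scanned, before the dye correction that the log2 ratios carry. The mesenchymal signal was above the epithelial one on 6 of 6 arrays. In cultures 1, 2 and 3 the log2 ratios were 2.23, 1.42 and 1.41, so culture 1 stood highest and the other two were alike. The change passed the test (limma adjusted p = 0.00283) and was larger in size than that of 99.6% of tested probes. The 2 dye orientations differed little here, with a dye effect of 0.14 on the log2 scale. No spot of this probe was saturated, and it was of middling brightness, brighter than 44% of probes.

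Vcan encodes versican, a large hyaluronan-binding chondroitin sulfate proteoglycan of loose, provisional matrix. Its brighter probe (L0845A10-3) had 5869 to 18776 scanner units in mesenchymal RNA, median 12109, against 1889 to 6973 in epithelial RNA, median 5230. Log2 ratios were 1.45, 1.07 and 1.15 in cultures 1, 2 and 3 (adjusted p = 0.00119). Each of the 6 arrays had mesenchymal signal above epithelial signal for it. The dimmer probe (H3121G09-3) had 1508 to 9175 units in mesenchymal RNA and 991 to 4514 in epithelial RNA. Its log2 ratios were 0.43, 0.53 and 0.63 (adjusted p = 0.00880).

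Both probes put Vcan higher in mesenchymal RNA, but not by the same amount. The brighter exceeded the dimmer by 1.02, 0.54 and 0.52 in cultures 1, 2 and 3, a mean difference of 0.70 ± 0.28 (SD, n = 3) on the log2 scale. That is the same direction in 3 of 3 cultures, where an exact sign-flip test cannot go below p = 0.25. Versican is made as several splice forms, and which of them each probe detects was not tested.

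**Figure D2:**
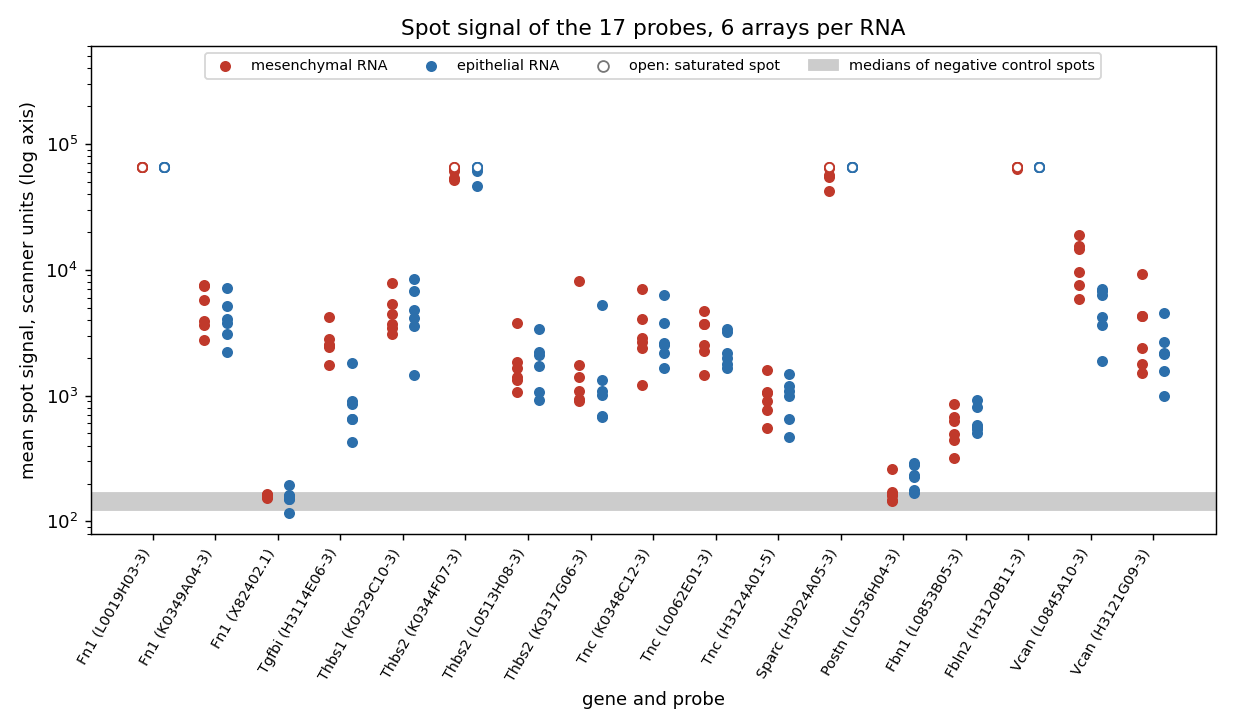
Mean spot signal in scanner units (y axis, log scale) for the 17 probes (x axis), with mesenchymal RNA (red) left of epithelial RNA (blue) and 1 point per array. Open points are saturated spots and the grey band spans the medians of the negative control spots of the 6 arrays in both RNAs. One Fn1 probe and the Fbln2, Sparc and first Thbs2 probes lie at the upper limit, and the Postn probe and another Fn1 probe lie near the band.

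Fibronectin's gene, Fn1, was represented by 3 probes of very different brightness, and none was called. The brightest (L0019H03-3) was saturated for both RNAs on 6 of 6 arrays, with signals of 65257 to 65287 units in mesenchymal RNA and 65258 to 65285 in epithelial RNA and 100% of its pixels saturated, so no fold is given for it. The middle probe (K0349A04-3) was saturated on no array and had 2742 to 7569 units in mesenchymal RNA, median 4844, against 2232 to 7207 in epithelial RNA, median 3931. Its log2 ratios were 0.19, 0.15 and 0.30, a mean of 0.21 ± 0.07 with a 95% interval of 0.04 to 0.39 (adjusted p = 0.134).

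The middle Fn1 probe was higher in mesenchymal RNA in 3 of 3 cultures, but its sign followed the dye: 0.62, 0.71 and 0.74 with mesenchymal RNA in Cy3, and -0.24, -0.41 and -0.15 with it in Cy5. Without culture 1 it passed the threshold (0.23, adjusted p = 0.0224), in the fit that called 5875 of 18192 probes. The main fit called 2272 of 20185. With either of the other cultures left out instead, the middle Fn1 probe was not called. The dimmest Fn1 probe (X82402.1) gave 152 to 166 units in mesenchymal RNA and 116 to 193 in epithelial RNA, which was above 54.9% to 78.4% of the negative control spots in mesenchymal RNA and above 25.3% to 79.6% of them in epithelial RNA. It averaged -0.03 ± 0.13 (adjusted p = 0.898). Fn1 was thus measurable through 1 of its 3 probes, and that probe left room for a difference of up to 0.39 on the log2 scale upward.

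What a saturated pair of spots reports can be read from the arrays directly. On each array, the 178 to 282 probes saturated for both RNAs had log2 ratios that spanned at most 0.00445, and that common value differed between arrays: with mesenchymal RNA in Cy5 it was -0.03, 0.17 and 0.27 in cultures 1, 2 and 3, and in Cy3 it was -0.22, -0.21 and -0.22. Fn1 and Fbln2 took the same values on the arrays where both were saturated, for example -0.2233 for Fn1 and -0.2232 for Fbln2 on the culture 1 array with mesenchymal RNA in Cy3. The ratio of such a spot was thus shared by all such spots of the array. Of all 20371 probes, 108 were saturated for both RNAs on 6 of 6 arrays, the brightest Fn1 probe among them.

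The thrombospondins are trimeric or pentameric glycoproteins that bind CD36, CD47 and integrins, and Thbs1 and Thbs2 encode the trimeric, anti-angiogenic pair. Thbs1 (K0329C10-3) had 3113 to 7809 units in mesenchymal RNA, median 4063, against 1458 to 8362 in epithelial RNA, median 4483. It was measured in 2 cultures, because its spot was outlier-flagged on 1 array of culture 3, and its log2 ratios were 0.23 and -0.21 in cultures 1 and 2. The mean of 0.01 ± 0.31 (n = 2, adjusted p = 0.975) had a 95% interval of -0.33 to 0.35. The dye effect of 0.59 was the largest among the 17 probes, and the mean changed sign under 3 alternative settings, at -0.03, -0.01 and -0.03.

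Thbs2 had 3 probes. The brightest (K0344F07-3) was saturated on 2 arrays for mesenchymal RNA and on 4 for epithelial RNA, and gave -0.06 ± 0.03 (n = 3, adjusted p = 0.688). The second (L0513H08-3), with 1076 to 3788 units in mesenchymal RNA and 914 to 3378 in epithelial RNA and no saturated spot, gave -0.07 and -0.15 in cultures 1 and 3 and was flagged as an outlier on 1 array of culture 2. The third (K0317G06-3) gave 0.40 and 0.43 in cultures 1 and 2, a mean of 0.41 ± 0.02 (n = 2, adjusted p = 0.0518). It had a positive log2 ratio on each of the 5 arrays where it was measured.

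The third Thbs2 probe thus stood just outside the threshold, and it passed under 4 of the alternatives, with adjusted p between 0.00934 and 0.048. Its spot was outlier-flagged on the remaining array of culture 3, where it read 8164 units for mesenchymal and 5255 for epithelial RNA, whereas the other 5 arrays gave 912 to 1746 units for mesenchymal and 680 to 1333 for epithelial RNA. In culture 1, the only culture in which all 3 probes were measured and none of their spots was flagged as saturated, they gave -0.03, -0.07 and 0.40 from the brightest to the third. The brightest was near the limit there too. With mesenchymal RNA in Cy3, its mesenchymal spot read 64067 units with 4.8% of its pixels saturated. Whether the Thbs2 probes differ rests on that 1 culture, and what each detects was not tested.

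Tnc encodes tenascin-C, a hexameric anti-adhesive glycoprotein of wounds and tumour stroma. None of its 3 probes was called or saturated. The middle one in brightness (L0062E01-3) had 1446 to 4680 units in mesenchymal RNA, median 3113, against 1649 to 3367 in epithelial RNA, median 2085, and gave 0.17, 0.43 and 0.15 in cultures 1, 2 and 3. Its mean of 0.25 ± 0.15 had an adjusted p of 0.140. Without culture 1 it was at 0.29 (n = 2, adjusted p = 0.00233), in the fit that called 5875 of 18192 probes. All 3 arrays with mesenchymal RNA in Cy3 were positive for it (0.38, 0.92 and 0.60) and all 3 with it in Cy5 negative (-0.05, -0.07 and -0.30). The brightest (K0348C12-3) gave -0.09 ± 0.08 (n = 2) and the dimmest (H3124A01-5) -0.07 ± 0.09 (n = 3), with 95% intervals of -0.32 to 0.15 and -0.25 to 0.11.

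Sparc encodes osteonectin, a collagen-binding matricellular protein that is known to loosen cell adhesion. Its probe (H3024A05-3) was at the scanner's limit in every epithelial spot, and in 2 of the 6 mesenchymal spots. Mesenchymal signals ran from 42123 to 65259 units, median 60654, against 65258 to 65285 in epithelial RNA. On the 4 arrays where the mesenchymal spot was not saturated it was below the epithelial one. With mesenchymal RNA in Cy3, where its spot was below the limit, the log2 ratios were -0.44, -0.87 and -0.52. With it in Cy5 they were -0.03, 0.17 and 0.26, close to those of spots saturated in both RNAs.

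Over the 3 cultures Sparc averaged -0.24 ± 0.11 (adjusted p = 0.118). Without culture 1 it was at the same -0.24 and passed the threshold (n = 2, adjusted p = 0.0134), in the fit that called 5875 of 18192 probes. Because all epithelial spots and 2 mesenchymal spots were at the limit, no fold and no bound is given for it. Fbln2 encodes fibulin-2, a linker of elastic fibres and basement membranes. Its probe (H3120B11-3) was saturated on 5 arrays for mesenchymal RNA and on 6 for epithelial RNA, and gave -0.05 ± 0.07 (adjusted p = 0.793). The only mesenchymal spot below the limit, in culture 2 with mesenchymal RNA in Cy3, read 63351 units. Its log2 ratio was -0.25, against -0.21 for spots of that array saturated in both RNAs. On the other arrays no difference could show, and a higher mesenchymal level could show on none.

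Postn encodes periostin, a matricellular partner of collagen and fibronectin that is known for its part in matrix of injured and growing tissue. Its probe (L0536H04-3) was dim in both RNAs, with 145 to 262 units in mesenchymal RNA, median 162, against 168 to 292 in epithelial RNA, median 229. It was brighter than 1.3% of probes. The mesenchymal spot exceeded 54.9% to 84% of the negative control spots of its array, and the epithelial spot 74.1% to 98.1%. The log2 ratios were -1.03, -0.65 and -0.41 in cultures 1, 2 and 3, and negative on 6 of 6 arrays (adjusted p = 0.0188). As scanned, before the dye correction, the mesenchymal signal was above the epithelial one on 1 array. That was the culture 3 array with mesenchymal RNA in Cy3 (262 against 224 units).

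The mean log2 ratio of Postn was -1.33 with the log ratios of the scanner and with those of the authors' deposited table, and -0.46 with no background subtraction. With the pairing of the RNAs within a culture left out, its adjusted p was 0.149. Fbn1 encodes fibrillin-1, the backbone of microfibrils that also hold latent TGF-beta. Its probe (L0853B05-3) had 320 to 851 units in mesenchymal RNA, median 560, against 504 to 925 in epithelial RNA, median 575. Log2 ratios were -0.59, -0.24 and -0.43 in cultures 1, 2 and 3 and negative on 5 of 6 arrays, the exception being 0.04 on the culture 2 array with mesenchymal RNA in Cy3.

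Fbn1 was close to the threshold (adjusted p = 0.0354). Its call was also lost without culture 2 (-0.51, adjusted p = 0.0515) and with the pairing within a culture left out (adjusted p = 0.896). The unpaired fit also lost the dimmer Vcan probe (adjusted p = 0.155). Tgfbi and the brighter Vcan probe kept their calls under all 15 alternatives that gave them a value, with log2 ratios of 1.42 to 1.83 and of 1.11 to 1.30.

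**Figure D3:**
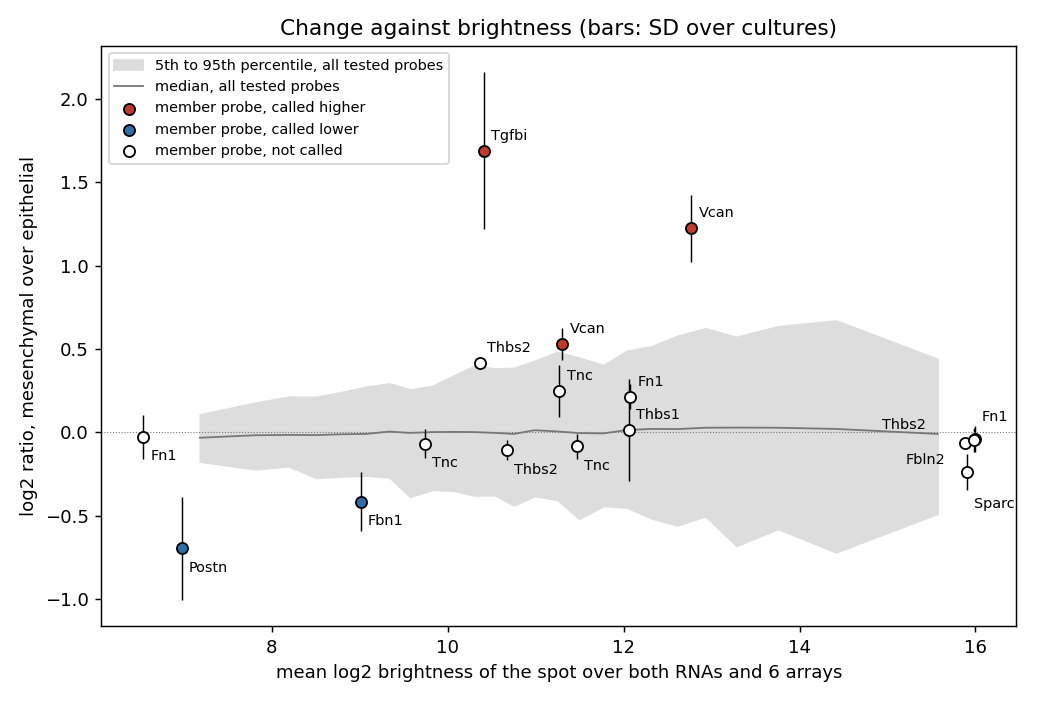
Log2 ratio of mesenchymal over epithelial RNA (y axis) against mean log2 spot brightness (x axis) for the 17 probes, with bars for the SD over cultures. The grey band is the 5th to 95th percentile of all tested probes of like brightness and the line their median. Tgfbi and the brighter Vcan probe lie far above the band, and the dimmer Vcan probe and a Thbs2 probe (K0317G06-3) just above it. Postn and Fbn1 lie below the band, and 4 probes sit at the bright end.

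The 95% intervals of Tgfbi (1.27 to 2.11) and the brighter Vcan probe (0.99 to 1.46) overlapped. Both lay above that of Fbn1 (-0.63 to -0.20), which follows from calls in opposite directions. Postn is not ranked, since its signal was near that of the negative controls. The spread over cultures was largest for Tgfbi (0.47) and next for Postn and Thbs1 (both 0.31). Among the called probes the 3 cultures shared their sign in each case, which a call on their mean makes likely. Over all probes, the correlation between the ratios of 2 cultures was 0.88 for cultures 2 and 3, 0.59 for 1 and 2 and 0.63 for 1 and 3.

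Whether other secreted matrix glycoproteins behaved alike was read from a list of 51 genes that leaves out the 10 above. Of these, 22 were tested, each by its brightest probe, and 5 were higher, 3 lower and 14 not called (36.4% called against 11.3% of all probes), with a median log2 ratio of 0.005. The highest were Spp1, which encodes the integrin ligand osteopontin (2.22 ± 0.24, adjusted p = 0.000269), Ccn3 (1.87 ± 0.07, n = 2), and Smoc2, a relative of Sparc (1.41 ± 0.18). Ecm1 rose by 0.45 ± 0.13. Spp1 was saturated for mesenchymal RNA on 2 arrays.

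Lower were Ccn2, connective tissue growth factor (-1.72 ± 0.24, adjusted p = 0.000527), Spon2 (-0.94 ± 0.33) and Ccn4 (-0.65 ± 0.25). Ccn2 and Ccn4 were saturated for epithelial RNA on 4 and 5 arrays. Another Ccn2 probe was at 0.11, so the 2 Ccn2 probes disagreed. Among the CCN genes, which encode matricellular proteins of 1 family, Ccn3 was thus higher and Ccn2 and Ccn4 lower by their brightest probes.

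Receptors through which these glycoproteins act were read from a list of 23, of which 19 were tested: 4 were higher, 3 lower and 12 not called (36.8% called against 11.3% of all probes), with a median of 0. Higher were the syndecans Sdc3 (0.97 ± 0.40) and Sdc1 (0.94 ± 0.11, n = 2), the hyaluronan and osteopontin receptor Cd44 (0.90 ± 0.26, adjusted p = 0.00521) and the thrombospondin receptor Cd47 (0.43 ± 0.17). A second Cd44 probe was at 1.06, a second Sdc1 probe at 0.16 and a second Cd47 probe at -0.27, so Cd47 differed in sign between its probes. Lower were the syndecan Sdc2 (-1.16 ± 0.19, and -1.46 by another probe) and the integrin chains Itgb5 (-0.54 ± 0.21) and Itgb1 (-0.31 ± 0.04, adjusted p = 0.0420). The other Itgb1 probes gave -0.17 and 0.09.

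Enzymes that crosslink or cleave matrix made a list of 24, of which 16 were tested: 2 were higher, 5 lower and 9 not called (43.8% called against 11.3% of all probes), with a median of -0.138. Higher were Plat, tissue plasminogen activator (1.46 ± 0.22, adjusted p = 0.000791), although another Plat probe was at -0.09, and the lysyl oxidase relative Loxl4 (0.52 ± 0.13). Lower were Tgm2, the transglutaminase that crosslinks fibronectin (-2.03 ± 0.19, n = 2, adjusted p = 0.000904), Lox, the collagen and elastin crosslinker (-1.68 ± 0.25 with epithelial RNA saturated on 2 arrays, and -1.58 by another probe), the gelatinase Mmp2 (-1.08 ± 0.09, n = 2) and Loxl2 (-0.69 ± 0.18, n = 2). Over the 3 lists 22 of 57 genes (38.6%) were called, 11 higher and 11 lower, against the same 11.3%. That share is over probes of every brightness, whereas list genes were read by their brightest probe. Among tested probes binned by brightness, 1.11% were called in the dimmest bin, 25.3% in the next to brightest and 14.6% in the brightest.

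**Figure D4:**
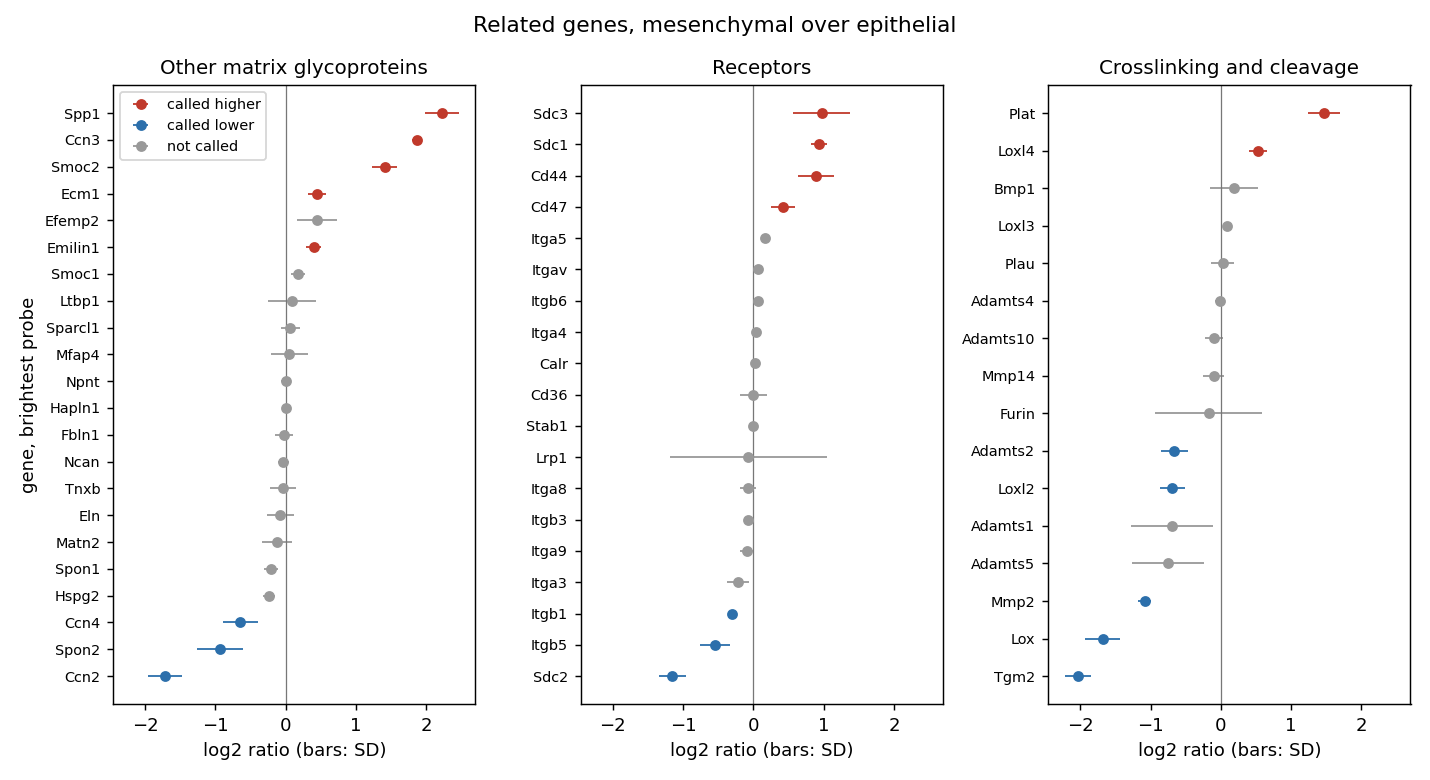
Log2 ratio of mesenchymal over epithelial RNA (x axis) for the tested genes of the 3 lists (y axis, 1 panel per list), each by its brightest probe, with bars for the SD over cultures. Red points were called higher, blue points lower and grey points not called. Each panel holds genes on both sides of 0.

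Of the markers of OSE and mesothelium, 6 of 9 tested were lower (66.7% called) and none higher in mesenchymal RNA. Over all tested probes, of every brightness, 11.3% were called, and 5.66% were called lower. Msln was at -2.07 ± 0.27, with Wt1 at -0.89 ± 0.10 and Krt18 at -0.46 ± 0.42 (not called). Krt19 read -0.91 ± 0.09 with epithelial RNA saturated on 2 arrays, and Krt8 read -0.32 ± 0.06 with each RNA saturated on 3 arrays and 2 of the 6 ratios positive, so neither is an exact size. Krt7, saturated in epithelial RNA on 6 of 6 arrays, was at least 3.56-fold lower. Over the 9 probes the mean log2 channel level was 13.40 to 13.72 in mesenchymal RNA and 14.44 to 14.71 in epithelial RNA.

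Of the fibroblast and stroma markers 3 of 6 were lower (50% called against 11.3% of all tested probes) and none higher. Their mean levels were 11.35 to 11.74 in mesenchymal RNA and 12.47 to 12.94 in epithelial RNA. The smooth muscle and pericyte list had 1 of 6 higher and 1 lower (33.3% called). Its levels were 11.78 to 12.04 in mesenchymal and 11.49 to 11.88 in epithelial RNA. The granulosa list had 1 of 8 lower (12.5% called), near the 11.3% of all tested probes. The theca, endothelium and leukocyte lists had 0 of 13 called by limma, and 3 of the 13 had an unadjusted p under 0.05. The part of these marker shifts in the values of Tgfbi, Vcan, Postn and Fbn1 was not tested.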

How the data were processed

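RNA of 3 OSE cultures was measured on 6 two-colour Agilent arrays. Per the file headers, the deposited scanner files hold spot mean and local background intensities from Agilent Feature Extraction A.7.1.1, and log10 ratios of Cy5 over Cy3. In the value table that the authors deposited, the log10 ratios equalled the dye-swap mean of the scanner log ratios (correlation of 1 over probes), with medians of 0.00555, -0.0101 and -0.00233 in cultures 1, 2 and 3. Per the submitters' processing notes limma was used. The genome build was not given in the sources used here.

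Here intensities were corrected in limma 3.58.1 (R 4.3.3) with normexp (offset 50), and dye bias within an array was corrected by loess, in which control spots had no weight. Every log2 ratio was given as mesenchymal over epithelial. The mean of a culture's 2 arrays made 1 replicate, so the pairing comes from the shared culture. Outlier-flagged spots were left out, saturated ones kept, and 2 of 3 cultures were required. A filter on dim probes, which asked for the well-above-background flag of 1 RNA on at least 4 of 6 arrays, removed 43. Each probe was tested against 0 with lmFit and eBayes, and the dye effect likewise; the test and the fold changes are per probe. Bounds and channel levels were taken from single channels scaled by Aquantile after the loess.

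Names came from a RefSeq table of assembly GRCm38.p6 through gene IDs (9946 probes), symbols (95) or synonyms (1335), or from the files (1256). In simulated data with the spread of the 17709 probes measured in 3 cultures, log2 changes of 0.5, 1 and 2 were given to 67, 67 and 66 probes. They were recovered in 23.9%, 71.6% and 92.4% of cases with 2 false calls. The main fit called many more probes (2272 of 20185), which moves the threshold, so these shares do not carry over to it directly. Genes named beside the members are up to 4 called in each direction in each of the 3 lists, by size of change, and the markers Krt7, Krt8, Krt18, Krt19, Wt1 and Msln whatever their values. The members and lists were chosen with earlier results of these data known. Alternatives changed the background step, the normalisation, the filters, the handling of saturated and flagged spots, the model and the cultures used, and 1 used the authors' table. The number of cultures limits the precision.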

Additional observations from a re-analysis of the deposited data

How the results depend on the processing

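The main counts were 2272 called probes, 5 called member probes and 22 called genes in the 3 lists of related genes. With separate channels and no replicate block they were 256, 2 and 7, and the calls of Fbn1, Postn and the dimmer Vcan probe were lost. Leaving out 1 culture gave 809 to 5875 called probes, 3 to 8 member probes and 10 to 25 list genes, the lowest without culture 3 and the highest without culture 1, each with 2 cultures. At adjusted p under 0.01 there were 963 called probes, and with a change of at least 2-fold 353, of which 38.2% were higher, against 49.7% in the main count. The sign of an uncalled value turned in 7 cases: the dimmest Fn1 probe was at 0.181 with scanner log ratios and with the authors' deposited table and ran from -0.099 to 0.033 when 1 culture was left out, the brightest Fn1 probe ran from -0.072 to 0.002 likewise, and Thbs1 at -0.031 with outliers kept, -0.013 in the 6-array fit and -0.030 in the authors' deposited table. The cause was not tested. No called member turned its sign under any alternative run. Saturation limits Fn1, Fbln2, Sparc and Thbs2, and signal near the negative controls limits Postn. Nothing says how many animals stood behind a culture, so the replicates are these 3 cultures. The p-values use each probe's spread over them after eBayes drew it toward that of all probes.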
